A study of Mus musculus with 6 samples.

Results

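The ABC drug and conjugate efflux transporters described here are Abcb1a, Abcb1b, Abcg2 and Abcc1 to Abcc5, 8 of the 20476 coding genes named on an Agilent one-colour array, measured by 25 of its 150305 probes, which cover long non-coding, circular and messenger RNAs. A probe was taken as a member when its gene name was one of the 8 symbols, which gave 17 probes, or when it was designed to a RefSeq transcript of one of them, which gave 8 more. Total RNA from the prefrontal cortex of male ICR mice aged 3 to 4 months was hybridised, with 3 arrays of wild-type mice and 3 arrays of Nrf2 knockout mice, and genotype is the only difference between the groups that the labels name. Nrf2, encoded by Nfe2l2, is a transcription factor that switches on antioxidant and detoxification genes. Which exons of Nfe2l2 were deleted, and whether in every tissue, is not said in the labels. The labels are also silent on whether the 3 samples of a group came from separate animals, so the p-values measure only the spread between these samples.

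ABC transporters use the energy of ATP to move molecules across membranes. In brain they are best known at the blood-brain barrier, where P-glycoprotein (made from Abcb1a and Abcb1b in mice) and BCRP (made from Abcg2) in the membrane of capillary endothelial cells return lipophilic drugs to the blood. The ABCC proteins, or MRPs, carry organic anions, among them drugs and toxins that conjugating enzymes have joined to glutathione, glucuronic acid or sulfate, and several of the genes are known in other tissues as targets of Nrf2. The comparison of the genotypes therefore asks whether the RNA of these exporters differed between wild-type and Nrf2 knockout cortex.

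Each value is the base 2 logarithm of the scanner's background-subtracted signal minus the 75th percentile of that array, so 0 is the level of the 75th percentile. Levels of different probes are not set against each other, apart from differences between Abcc5 probes within an array. Marker lists are also given a mean and a summed level per array, over the brightest tested probes of their genes. The summed level is the base 2 logarithm of the summed unlogged values, so the brightest genes weigh most in it. The labels name no slide; scan times in the file headers and the slide barcodes agree in placing the 3 wild-type arrays and knockout 1 on one slide, called slide 1, and knockouts 2 and 3 on another, slide 2. The share of probes well above background ran from 71.0% to 73.4%, the 75th percentile of signal ran from 245 to 280 units, and no spot was saturated. Of 105930 probes tested with limma, 10 were called at an adjusted p under 0.05, with Benjamini-Hochberg adjustment over all tested probes, 3 higher and 7 lower in the knockout. The genotype showed at Nfe2l2: one probe, well above background on all arrays, read 0.49, 0.39 and 0.35 in wild type against -3.74, -3.79 and -3.46 in the knockout (log2 change -4.08, SE 0.12, limma adjusted p = 6.14e-04; -2.43 with normexp background correction and quantile normalization), and the other 2 probes of its mRNA, in chr2:75513771-75513830 and chr2:75513917-75513976 of mm9, were not well above background on any knockout array and at least 81.5-fold and 65.6-fold higher in wild type. Those folds set the wild-type mean against the lowest signal well above background on each knockout array. Another probe, designed to a non-coding transcript record of Nfe2l2, overlapped between the genotypes (-0.35, SE 0.19, adjusted p = 0.393).

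Some probes of the set share sequence, which decides how far they count as separate measurements, and the letters are shown first for that reason. Capitals mark the run that the probes of a pair share. The probes Abcg2-a, which spans 1683 bases of the genome at chr6:58640579-58642261 (mm9, plus strand) and so crosses an intron, and Abcg2-b have 45 of their 60 bases in common. Abcc1-c and Abcc1-d, at chr16:14473598-14473657 and chr16:14473557-14473616 (mm9, plus strand), have 19 in common. No other pair of probes of the same gene shared a run of 12 bases. Letters after a gene name order its probes from the brightest.
Abcg2-a: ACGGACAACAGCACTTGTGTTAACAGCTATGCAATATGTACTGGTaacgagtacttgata
Abcg2-b: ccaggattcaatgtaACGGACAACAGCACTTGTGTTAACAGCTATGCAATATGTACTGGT
Abcc1-c: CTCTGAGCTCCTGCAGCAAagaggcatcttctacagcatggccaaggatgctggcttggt
Abcc1-d: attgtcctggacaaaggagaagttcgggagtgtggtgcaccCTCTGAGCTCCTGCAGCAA

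Abcb1a and Abcb1b encode close relatives, so their transcripts could share hybridisation. A probe of each is printed to show how far the probe letters differ. No Abcb1a probe shared a run longer than 7 bases with an Abcb1b probe, although hybridisation of a probe to the other transcript was not tested. The Abcb1b probe lies at chr5:8861441-8861500 (mm9, plus strand).
Abcb1a-b: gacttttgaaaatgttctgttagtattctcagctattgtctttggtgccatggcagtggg
Abcb1b-c: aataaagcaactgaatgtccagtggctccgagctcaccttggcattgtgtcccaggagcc

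The promoters were read for the core letters of the antioxidant response element, to which Nrf2 binds as a pair with a small MAF protein. The letters searched were TGACNNNGC on both strands, in RefSeq promoters of GRCm38.p6 that reach from 250 bases before a transcript's start to 50 bases after it. The table holds 9 promoters for 6 of the 8 genes (Abcb1a, Abcb1b, Abcg2, Abcc2, Abcc4 and Abcc5), and 4 of the 9 held the letters, against 12.4% of the 32851 promoters in it. Each match is shown in capitals with 10 bases on either side, on the gene's own strand. In Abcc2 the match began 98 bases before the start. In the promoters of 2 Abcc4 transcripts it began 25 and 23 bases before the start, and in Abcb1a it lay in the transcribed stretch, at base 27. Such a match describes the letters only.
Abcc2, chr19:43782200-43782228, plus strand: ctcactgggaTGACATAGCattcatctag
Abcc4, chr14:118706226-118706254, minus strand: gccccgagagGCGGGGTCAgggcgggccg
Abcc4, chr14:118676936-118676964, minus strand: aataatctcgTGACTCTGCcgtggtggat
Abcb1a, chr5:8567107-8567135, plus strand: ctctttgtccGCGGAGTCAgacagaacaa

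Of the 25 probes, 22 in 7 genes were well above background on all 3 arrays of at least 1 genotype and were tested. None of the 22 was called by limma at an adjusted p under 0.05, where 0.00944% of all tested probes were, and none had an unadjusted p under 0.05, where 15.1% of all tested probes did. The smallest p was 0.057 (adjusted p = 0.338), at Abcc1-d. The log2 changes ran from -0.27 to 0.43, with 12 above 0 and 10 below and a median of 0.02, beside a median of 0.03 over all tested probes. In this fit, which has no slide term, the 95% interval of the change lay inside ±1 on the log2 scale, a 2-fold difference, at 21 of 22 probes. It lay inside ±0.5, a 1.41-fold difference, at 16. These intervals do not allow for a shift between the slides, and slide 2 holds no wild type. The groups did not overlap at 2 of the 22 probes (9.09%), Abcc1-d and Abcc5-d, both higher in the knockout, beside 21.6% of all tested probes in either direction and 11.1% with the knockout higher.

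**Figure D1:**
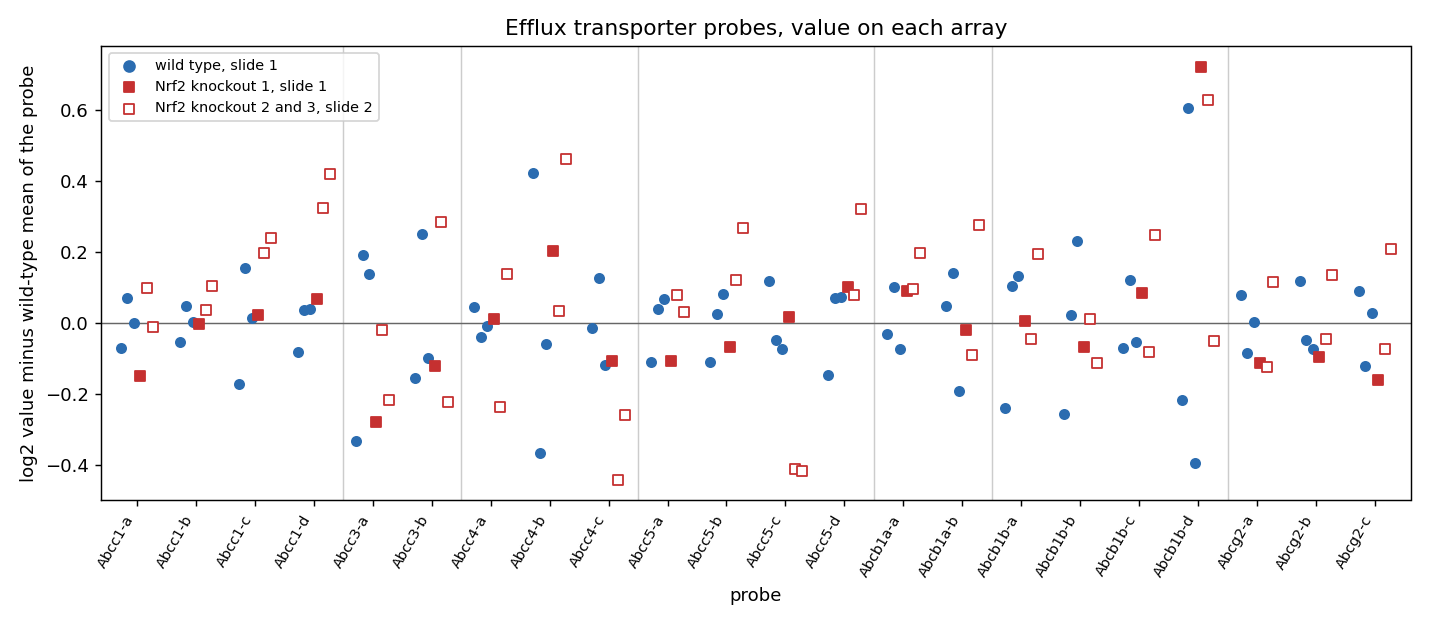
Log2 value of each tested probe on each of the 6 arrays, as the difference from the wild-type mean of that probe; circles are wild type, squares are Nrf2 knockout, and open squares are the knockouts on slide 2. Knockout squares and wild-type circles intermix at 20 of the 22 probes, and at Abcc1-d and Abcc5-d all 3 squares lie above all 3 circles.

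P-glycoprotein RNA did not differ detectably between the genotypes. Abcb1a, the form that brain capillaries of mice are known to express, read -1.08, -0.95 and -1.12 in wild type against -0.96, -0.95 and -0.85 in the knockout at probe Abcb1a-a. The knockout arrays lay at the upper end, with 1 wild-type array among them. The difference was 0.13 (SE 0.09, 95% interval -0.09 to 0.35, limma adjusted p = 0.481), or 0.94 to 1.27 times wild type in the fit without a slide term. At Abcb1a-b, whose sequence is printed above, the arrays read -1.47, -1.38 and -1.71 in wild type against -1.54, -1.61 and -1.24 in the knockout. The highest value was a knockout array and the lowest a wild-type array, and the difference of 0.06 had an interval of -0.28 to 0.39.

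Abcb1b, the form of P-glycoprotein known mainly from adrenal and pregnant uterus, was read by 4 probes. At Abcb1b-a the values were -0.86, -0.52 and -0.49 in wild type against -0.62, -0.67 and -0.43 in the knockout, overlapping throughout. The changes at Abcb1b-a, Abcb1b-b and Abcb1b-c were 0.05, -0.05 and 0.08 with standard errors of 0.13, 0.14 and 0.12. Abcb1b-d, a probe over an exon junction at chr5:8827445-8827707 of mm9, read close to the lowest signals that counted as above background. It gave -4.68, -3.85 and -4.85 in wild type against -3.74, -3.83 and -4.51 in the knockout. Its difference of 0.43 was the largest of the set and its standard error of 0.32 was also the largest, with an interval of -0.33 to 1.20 that is the one reaching past 2-fold.

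Abcg2, which encodes the BCRP exporter of drugs and urate, gave values nearly equal in the genotypes at all 3 probes. Abcg2-a read 2.48, 2.32 and 2.40 in wild type against 2.29, 2.28 and 2.52 in the knockout. The highest and the lowest of the 6 values were both knockout arrays. The difference was -0.04 (SE 0.11, 95% interval -0.29 to 0.22, limma adjusted p = 0.863), or 0.82 to 1.16 times wild type. Abcg2-b, which repeats 45 bases of that probe, gave 2.30, 2.14 and 2.11 against 2.09, 2.14 and 2.32 and a difference of -0.0001 with an interval of -0.25 to 0.25. Abcg2-c, over another intron at chr6:58628344-58633274 of mm9, differed by -0.01 (SE 0.13).

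In whole cortex a lower number of endothelial cells and less RNA in each such cell cannot be told apart. The endothelial list fixed for this report had 18 of 18 genes measured, 9 above 0 and 9 below, with a median log2 change of 0.02. Cldn5, a tight junction protein that defines the brain endothelium, differed by 0.06 (SE 0.13). The list's mean level ran from 1.86 to 2.00 over the wild-type arrays and from 1.78 to 2.09 over the knockout arrays, and its summed level from 7.46 to 7.51 and from 7.28 to 7.51. No endothelial gene was called, and Ly6c1 and Kdr had an unadjusted p under 0.05, at -0.36 and -0.34; both were named after their values were seen. Pericyte and smooth muscle genes had a median of 0.02 over 12 of 12 genes, with Pdgfrb, the pericyte receptor, at 0.09 (SE 0.10). Cldn5 stood at -0.01 and Pdgfrb at -0.02 with slide as a block.

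Among the conjugate exporters, Abcc1 encodes MRP1, which exports glutathione conjugates and leukotriene C4. Its brightest probe, Abcc1-a, read 2.81, 2.95 and 2.88 in wild type against 2.73, 2.98 and 2.87 in the knockout, a difference of -0.02 (SE 0.10, 95% interval -0.26 to 0.22). Abcc1-b differed by 0.05 (SE 0.08). The neighbouring pair whose sequences overlap by 19 bases read higher: Abcc1-c differed by 0.15 (SE 0.12), and Abcc1-d gave -1.20, -1.08 and -1.08 against -1.05, -0.80 and -0.70. All 3 knockout arrays were above all 3 wild-type arrays at Abcc1-d. Its difference was 0.27 (SE 0.12, 95% interval -0.01 to 0.55, limma adjusted p = 0.338), an excess that came to 0.07 for knockout 1, on the slide of the wild types, and to 0.37 for the mean of knockouts 2 and 3. The estimates of the gene's probes thus ran from -0.02 to 0.27 with overlapping intervals, and the differences between the probes were not tested.

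Abcc4 encodes MRP4, an exporter of cyclic nucleotides, prostaglandins and sulfated steroids that is also known at the blood-brain barrier and choroid plexus. Abcc4-a read 1.19, 1.10 and 1.13 in wild type against 1.15, 0.90 and 1.28 in the knockout, and its difference was -0.03 (SE 0.12, 95% interval -0.31 to 0.25). The wild-type values lay inside the range of the knockout values. Abcc4-b differed by 0.23 (SE 0.22). At the dim probe Abcc4-c the values were -2.98, -2.84 and -3.09 in wild type against -3.08, -3.41 and -3.23 in the knockout, a difference of -0.27 (SE 0.12, limma adjusted p = 0.347). Knockout 1 lay just above the lowest wild-type array there. With normexp background correction and quantile normalization that difference was -0.04.

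Abcc5 encodes MRP5, a carrier of organic anions and cyclic nucleotides, and 3 of its probes were designed to one transcript record and the other to transcript variant 2. Abcc5-a read 5.16, 5.31 and 5.33 in wild type against 5.16, 5.35 and 5.30 in the knockout, a difference of 0.00 with an interval of -0.24 to 0.24. Abcc5-b differed by 0.11 (SE 0.12). Abcc5-d read 0.43, 0.65 and 0.65 against 0.68, 0.66 and 0.90, with every knockout array above every wild-type array, the nearest 2 being less than 0.01 apart, and differed by 0.17 (SE 0.11, limma adjusted p = 0.462).

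The probe of variant 2, Abcc5-c, lay lower on the knockout arrays of slide 2. It read 1.70, 1.53 and 1.51 in wild type against 1.60, 1.17 and 1.16 in the knockout, so that knockout 1 fell among the wild types while the other two were below them. The difference was -0.27 (SE 0.14, 95% interval -0.62 to 0.08, limma adjusted p = 0.387). Knockout 1 differed from the wild-type mean by 0.02 and knockouts 2 and 3 by -0.41. Without knockout 1 the probe's difference of -0.41 passed the test (adjusted p = 0.0489), a setting in which 12.8% of all tested probes did. Slide 2 holds no wild type, so slide and genotype cannot be told apart on its arrays. Set against Abcc5-a on the same array, the variant 2 probe stood at -3.46, -3.77 and -3.83 in wild type against -3.56, -4.18 and -4.14 in the knockout. That within-array difference was 0.27 lower in the knockout on average and overlapped between the genotypes (exact permutation p = 0.3, two-sided, where 3 arrays against 3 cannot go below 0.1). Against Abcc5-b and Abcc5-d it was 0.38 and 0.44 lower with the same p. These ratios were chosen after the values were seen.

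Abcc3 and Abcc2, the MRPs best known from the 2 faces of the liver cell, held the 3 probes that were too dim to be tested. Abcc3-a read -1.07, -0.55 and -0.61 in wild type against -1.02, -0.76 and -0.96 in the knockout, a difference of -0.17 (SE 0.16, 95% interval -0.56 to 0.22), and Abcc3-b differed by -0.02 (SE 0.18). Wild-type arrays held both the highest and the lowest value of Abcc3-a. The third Abcc3 probe was well above background on 1 of 3 wild-type and 2 of 3 knockout arrays and was not tested. Neither Abcc2 probe was well above background on any of the 6 arrays, so no comparison was made for this exporter of bilirubin glucuronide.

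**Figure D2:**
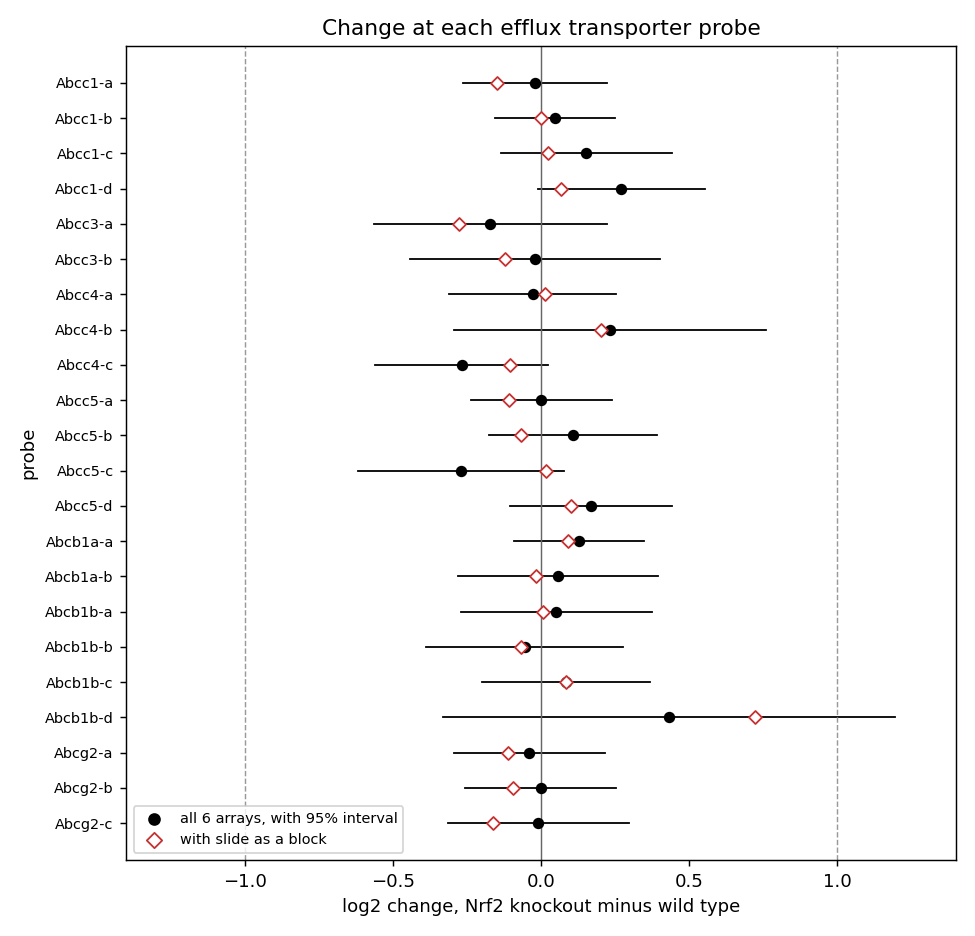
Log2 change of each tested probe, Nrf2 knockout minus wild type, on the x axis; black points and bars are the limma estimate over all 6 arrays with its 95% interval, open diamonds the estimate with slide as a block, and dashed lines mark 2-fold. Every bar crosses 0, and the bar of Abcb1b-d is the one that passes a dashed line.

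With slide as a block, an estimate that rests on knockout 1 against the 3 wild types, none of the 22 probes was called (lowest adjusted p = 0.929; 0.00661% of all tested probes were). The changes then ran from -0.28 at Abcc3-a to 0.72 at Abcb1b-d. Abcc1-d stood at 0.07, Abcc5-c at 0.02, Abcb1a-a at 0.09 and Abcg2-a at -0.11. Standard errors changed too, to 0.33 at Abcc4-b, 0.45 at Abcb1b-d and 0.12 at Abcc5-c, from 0.22, 0.32 and 0.14 without the block.

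The circular RNAs made from inside these genes could be compared as well. A circRNA forms when the end of an exon is spliced back to the start of an earlier one, and the array's junction probes carry the positions of both ends in their names. Those positions lay inside a coding gene of GRCm38 for 97.3% of the 37852 circRNAs on the array. In all, 64 circRNAs lay inside members, 34 in Abcc1, 17 in Abcc4, 13 in Abcc5 and 0 in the other five genes, and 63 were tested. None was called by limma, beside 0.00289% of all tested circRNAs, and 12 had an unadjusted p under 0.05 (14.8% of all tested circRNAs did). The groups did not overlap for 16 of 63 (25.4%), beside 23.3% of all tested circRNAs.

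Abcc1 held most of these. Of its 33 tested circRNAs, 14 (42.4%) did not overlap between the genotypes, 9 lower and 5 higher in the knockout, beside 23.3% of all tested circRNAs. In the limma fit 10 had an unadjusted p under 0.05, beside 14.8% of all tested circRNAs. The changes ran from -0.49 to 0.39, with a median of 0.07, or -0.02 with slide as a block. Many of these probes share sequence, so the counts are not of separate measurements. The 6 tested circRNAs that start at 14403990 share a run of 49 bases, and the 3 that start at 14436507 share 52. The 3 back-spliced RNAs that begin at the same base of Abcc1 are printed because each was lower on all 3 knockout arrays than on any wild-type array. They start at chr16:14410700 (GRCm38, plus strand) and end at different exons, and capitals mark the 45 bases that their probes share. They were chosen after the values were seen.
Ending at chr16:14413382: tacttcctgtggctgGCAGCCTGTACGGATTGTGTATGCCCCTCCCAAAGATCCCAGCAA
Ending at chr16:14423260: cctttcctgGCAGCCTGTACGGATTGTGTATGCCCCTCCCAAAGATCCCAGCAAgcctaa
Ending at chr16:14448583: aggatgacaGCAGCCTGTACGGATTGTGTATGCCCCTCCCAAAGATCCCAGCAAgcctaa

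The one ending at 14423260 in Abcc1 read 0.80, 0.68 and 0.80 in wild type against 0.60, 0.24 and 0.12 in the knockout, a difference of -0.44 (SE 0.14, limma adjusted p = 0.308). The one ending at 14448583 read 0.57, 0.49 and 0.60 against 0.31, 0.20 and -0.32, a difference of -0.49 (SE 0.17, adjusted p = 0.314), and the one ending at 14413382 differed by -0.20 (SE 0.10, adjusted p = 0.365). Since their probes differ in no more than 15 bases they are not separate measurements, and with slide as a block their differences were -0.15, -0.25 and -0.19. The run they share lies on the side of their common start, and whether these probes also bind linear Abcc1 RNA was not tested. The brightest mRNA probe of Abcc1 differed by -0.02. Another start in the gene, at 14389807, had 5 tested circRNAs of which 4 were above 0 and 1 below, so circRNAs of the gene did not share a direction.

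Of the 13 Abcc5 circRNAs, 11 were above 0, beside 22199 of the 34552 tested circRNAs on the array. Their median difference was 0.18 beside 0.08 over all tested circRNAs, and none had separated groups. Some have an end in common, as at chr16:20357558 and chr16:20365966 (GRCm38), so they may not be separate measurements. With slide as a block the median of the 13 was -0.03. The 17 Abcc4 circRNAs had a median of -0.01, with 8 above 0 and 9 below. Without knockout 1, 7 of the 63 circRNAs passed the test, in a setting where 12.8% of all tested probes did.

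**Figure D3:**
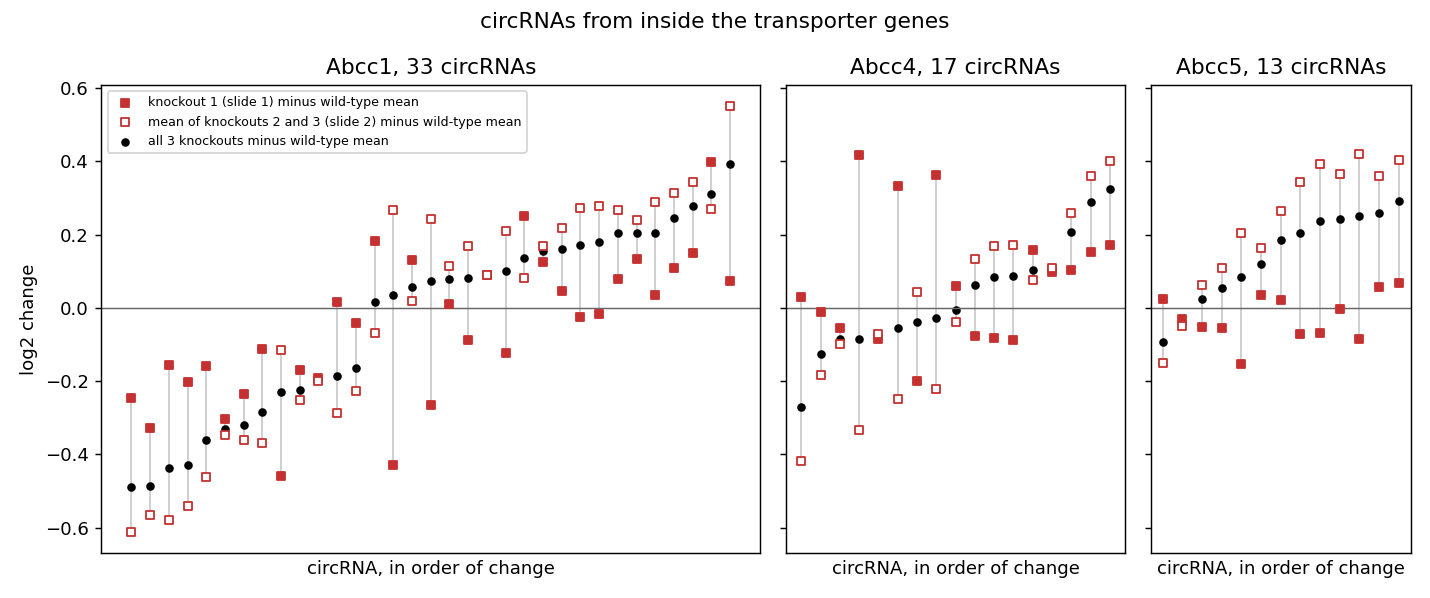
Log2 change of the 63 tested circRNAs of Abcc1, Abcc4 and Abcc5, ordered within each gene by the change over all arrays (black); filled squares are knockout 1 and open squares the mean of knockouts 2 and 3, each minus the wild-type mean. Open squares lie farther from 0 than filled ones for most circRNAs of Abcc5, whose median is 0.18 over all arrays and -0.03 with slide as a block.

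The other 40 ABC transporters gave 35 measured genes at their brightest probes, none called, with 16 above 0, 19 below and a median of -0.05, beside -0.01 over 17560 coding genes (0.0171% of them called, 12.4% at an unadjusted p under 0.05). The 4 at an unadjusted p under 0.05 were all lower, as were 1662 of the 2176 coding genes at that p. Abcg8 lay furthest from 0 among the 4, at -1.28 (SE 0.48, limma adjusted p = 0.319). The 3 of smallest p were Tap1 at -0.48 (SE 0.12), Abcc6 at -0.38 (SE 0.11) and Tap2 at -0.22 (SE 0.08), each with an adjusted p of 0.307 to 0.318; with slide as a block Abcc6 stood at -0.21. Tap1 and Tap2 form the carrier that loads peptides onto MHC class I molecules.

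Solute carriers of drugs and organic ions had 18 of 18 genes measured and none called, with a median of 0.07. Slc29a4, a monoamine and organic cation carrier, stood at 0.69 (SE 0.19), the thyroxine carrier Slco1c1 of brain capillaries at 0.43 (SE 0.14) and the organic anion carrier Slc22a6 at -0.47 (SE 0.18), with adjusted p of 0.307 to 0.32. With slide as a block Slc29a4 stood at 0.36, Slco1c1 at 0.32 and Slc22a6 at -0.75, and with normexp Slc29a4 stood at 0.40. Slco1c1 read 2.89, 2.57 and 2.50 in wild type against 2.97, 3.04 and 3.22 in the knockout, without overlap.

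The enzymes that make the conjugates which ABCC proteins carry had 25 of 26 genes measured, 17 below 0 and 8 above, with a median of -0.10, and none called at these probes. Gstm3 read 5.41, 5.92 and 5.70 in wild type against 4.12, 4.14 and 4.01 in the knockout, a difference of -1.58 (SE 0.14, limma adjusted p = 0.0842). Gstm1 stood at -1.61 (SE 0.16, adjusted p = 0.109) and Mgst1 at -1.53 (SE 0.18, adjusted p = 0.182), all 3 being glutathione transferases and all 3 without overlap between the genotypes. In the fit without a slide term their intervals, of which the nearest to 0 ended at -1.10, lay wholly below the lowest bound of any transporter probe, -0.62. With slide as a block Gstm3 stood at -1.56, Gstm1 at -1.41 and Mgst1 at -1.86. Picked as the 3 of smallest p in their list, they do not stand for the enzymes as a whole, whose median was -0.10. A difference between the enzyme list and the transporters was not tested. The brightest probes of the 7 tested transporters lay between -0.17 and 0.13.

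Of the factors known to regulate transporter genes, 21 of 22 were measured and none called, with a median of -0.03. The small MAF protein Maff, a binding partner of Nrf2, stood at -0.66 (SE 0.19), Trp53 at -0.57 (SE 0.20) and the nuclear receptor partner Rxra at -0.33 (SE 0.16), with adjusted p of 0.307 to 0.357. Trp53 stood at -0.14, Rxra at -0.20 and Maff at -0.81 with slide as a block. With normexp Maff, read by a dim probe, stood at -0.27.

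**Figure D4:**
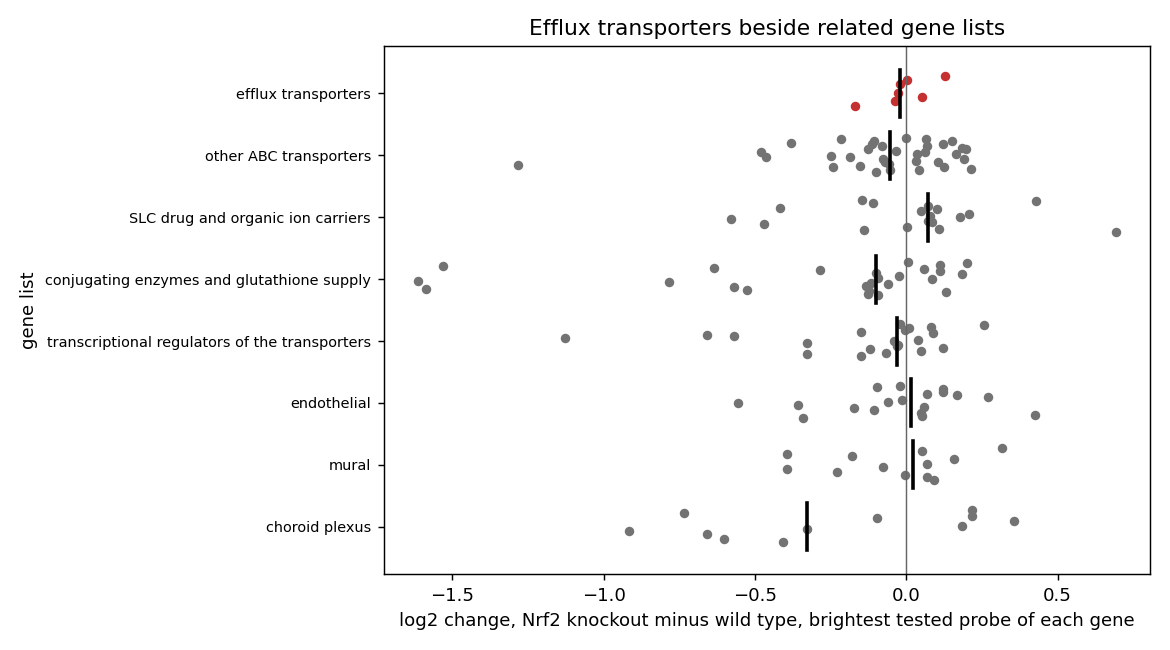
Log2 change at the brightest tested probe of each gene, Nrf2 knockout minus wild type, for the transporters (red) and 7 other gene lists (grey); vertical bars are list medians. The 7 transporters lie between -0.17 and 0.13, while Gstm1, Gstm3 and Mgst1, the 3 of smallest p in the enzyme list, lie below -1.5.

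Marker genes of other cells that the dissected tissue could hold were read on the same arrays. Meningeal fibroblast genes were below 0 in 11 of 11, with a median of -0.36 and a summed level of 5.30 to 5.83 in wild type against 4.97 to 5.31 in the knockout (Col1a1 -0.53, SE 0.46). Choroid plexus genes had a median of -0.33 over 11 of 12 genes, although Ttr stood at 0.22 (SE 0.16), and red cell genes had a median of 0.48 over 6 of 6, with Hba-a1 at 0.44 (SE 0.13). Microglia and macrophage genes were below 0 in 16 of 17, with a median of -0.07 (Cx3cr1 -0.01). The 5 of that list at an unadjusted p under 0.05, without overlap between the genotypes, were the border macrophage genes Cd163 (-0.78), Lyve1 (-0.76), Mrc1 (-0.67), Ms4a7 (-0.63) and Pf4 (-0.56). Striatal neuron genes had a median of -0.18 with 3 of 6 below 0 (Drd1 0.05), and those 3, Adora2a (-0.53), Drd2 (-0.43) and Rgs9 (-0.37), did not overlap either. These 8 genes were named after their values were seen. The medians were 0.05 for cortical neurons (Rbfox3 0.19), 0.00 for oligodendrocytes (Mbp 0.15) and 0.00 for astrocytes (Gfap -0.49, SE 0.24). Blocking on slide put Col1a1 at -0.94, Gfap at -0.87, Hba-a1 at 0.28, Ttr at -0.07 and Drd1 at -0.11. None of these genes was called, every listed marker gene had a probe well above background on at least 1 array, and their part in the transporter values was not tested.

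The profiles of Abcb1a and Abcg2 over the 6 arrays were also set beside those of 17496 coding genes, by the root mean square difference after centring each on its mean. Nearest to Abcb1a were Prepl (0.015), Suclg2 (0.022) and Gm20604 (0.029), and nearest to Abcg2 were Pdia6 (0.030), Gpt2 (0.037) and Nckap5l (0.037). Profiles this flat have many neighbours: 1207 and 1601 genes lay nearer than the member's own spread over the arrays, of 0.09 in both.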

How the data were processed

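Per the labels, total RNA was labelled with Cy3 and hybridised to one array per sample. Per the file headers, the deposited intensity of each spot came from version 12.0.3.1 of Agilent Feature Extraction; the submitters' processing notes name version 10.7. The authors also deposited a table of log2 values, which differed from quantile-normalised log2 intensities by 0.00355 to 0.00432 (median, per array), with column medians of 5.588 to 5.589; it served as an alternative.

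Here 4974 control spots and outlier-flagged spots were left out, and log2 processed intensity was scaled to each array's 75th percentile. Probes well above background on all 3 arrays of a genotype were tested with limma 3.58.1 (R 4.3.3), with Benjamini-Hochberg adjustment over all of them; the code was tested on simulated data. The fit took no covariate. The deposited annotation names the probes, with RefSeq transcripts matched to GRCm38.p6 for 48048 of 48467 probes with an accession. Genes stand at their brightest probe in lists. All member probes, the top 3 genes of each pathway list by p, and the first gene of each marker list are named. Members and lists were chosen with earlier results of these data known. The precision is limited by 3 arrays a genotype.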

Additional observations from a re-analysis of the deposited data

How the results depend on the processing

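No transporter probe was called under any alternative with all samples, nor when any single array other than knockout 1 was left out; without knockout 1, Abcc5-c was. Counts over all probes were 10 in the main setting, and 4 when probes had to be above background on all arrays and 4 on slide 1 alone; the other scalings, filters and slide blocks gave 7 to 11. Leaving out single arrays gave 5 to 13562 calls over all probes, the lower without wild type 3 or knockout 3, 50 without wild type 1 and the highest without knockout 1. The same omissions gave 0 to 1 for transporter probes, 0 to 8 for the other lists (1 without wild type 1, 8 without knockout 1) and 0 to 7 for circRNAs. Why these counts moved was not tested.

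The replicate numbers in the labels did not pair the samples: deviations of same-numbered arrays correlated at -0.01, -0.05 and 0.04. With the replicate number as a block, 2 probes were called over all probes and 0 among the transporters, the other lists and the circRNAs. Under that block the Nfe2l2 probe above background on all arrays had an adjusted p of 0.052 and the one at 81.5-fold of 0.134; the latter was also over 0.05 without wild type 2 (0.12) or 3 (0.108) and without knockout 2 (0.07) or 3 (0.0697).

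The direction of single probes turned under some settings, none of these probes being called in the main one. With slide as a fixed block or slide 1 alone, Abcc1-b stood at -0.0007, Abcc4-a at 0.0124, Abcc5-a at -0.1064, Abcc5-b at -0.0676, Abcc5-c at 0.0183 and Abcb1a-b at -0.0177. With slide as a random block Abcc5-a was at -0.0419, and with the percentile over coding probes at -0.0126. With normexp, Abcc3-b was at 0.0215, Abcc4-a at 0.019 and Abcg2-b at 0.0468. Quantile normalization put Abcc3-b at 0.0015 and Abcg2-b at 0.0171, and the authors' log2 table at 0.0004 and 0.0169. Leaving out 1 array at a time, Abcc1-a ran from -0.0787 to 0.0449, Abcc3-b from -0.1715 to 0.1066, Abcc4-a from -0.1119 to 0.0757, Abcc5-a from -0.0528 to 0.0557, Abcb1a-b from -0.0529 to 0.1297, Abcb1b-a from -0.0665 to 0.1186, Abcb1b-b from -0.183 to 0.0608, Abcg2-a from -0.1167 to 0.0034, Abcg2-b from -0.0687 to 0.0592 and Abcg2-c from -0.1168 to 0.0677. Abcc2 and 1 Abcc3 probe lay too near background to be compared.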
